A study of Caenorhabditis elegans with 10 samples.

Results

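The genes elo-1 to elo-9 encode the fatty acid elongases of C. elegans, and 71 of the 40986 peaks in 8 deposited ChIP-seq peak lists overlapped them or lay within 1000 bp of them. All 9 genes were found among the 19971 nuclear protein-coding genes of the gene table (assembly WBcel235). The members were chosen by name and by that distance, with no use of peak height.

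Fatty acid elongation takes place at the endoplasmic reticulum. An elongase joins a fatty acyl-CoA to carbons from malonyl-CoA, and a reductase, a dehydratase and a further reductase complete the round. In C. elegans, elo-1 acts in the synthesis of long polyunsaturated fatty acids, elo-2 lengthens palmitic acid, and elo-5 and elo-6 make the monomethyl branched-chain fatty acids that the animal needs for growth. The intestine is a main site of fat synthesis and also of yolk production, which draws on these lipids in the adult.

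Binding of PQM-1 (a zinc finger protein), CEH-60 (a homeodomain protein of the PBX family) and UNC-62 (of the MEIS family, given in the series' design text as isoform 7a) was mapped in whole day 1 adults by ChIP-seq, the sequencing of DNA recovered with an antibody to a DNA-bound protein or its tag. PQM-1 was recovered with the anti-FLAG antibody M2 from DLS422, genotype ceh-60(ok1485) with the transgene wgIs201, and from OP201, genotype unc-119(tm4063) with wgIs201. CEH-60 was recovered with the anti-HA antibody 3F10 from DLS435, which carries pqm-1(ok485) and ceh-60(rhd116), from DLS396, which carries ceh-60(rhd116) and the transgene gaIs285, and from DLS395, which carries ceh-60(rhd116) alone and gave replicates 1 and 2. A further anti-HA antibody, mIgG1, was used on DLS395, and UNC-62 was recovered with the anti-GFP antibody 3E6 from DLS396. All CEH-60 lists thus come from animals with the allele rhd116, and both PQM-1 lists from animals with the transgene wgIs201, so the PQM-1 values are those of the tagged transgene. Whole animals were used, so the tissue in which a site is bound, and whether more cells or more binding per cell gave a signal, cannot be told apart.

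PQM-1 in DLS422 and OP201, CEH-60 in DLS435 and CEH-60 replicate 2 were made with 1% formaldehyde for 5 min, and the other 4 lists with 2% formaldehyde for 30 min, other shearing and another library kit. Read depth is unknown, and the lists held from 2048 (CEH-60 in DLS435) to 9010 peaks (CEH-60 replicate 1). Each peak has a fold enrichment, the authors' own value at the peak summit over local background, which is given here with its rank among the nuclear peaks of the same list, rank 1 being the highest fold. Folds and ranks describe positions within a list. Where values of different lists stand side by side below, they do not measure a difference in binding between the lists. Apart from the 2 replicates of CEH-60 in DLS395, each group had 1 library, so differences between lists were not tested. Of the pairs below, 3 share CEH-60 replicate 1, and pairs otherwise share lists too, so they are not independent of each other.

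Of the 9 elongase genes, elo-1, elo-3 and elo-5 had a peak in all 8 lists, elo-6 in 7, and elo-2 and elo-9 in 6. The gene elo-7 had a peak in 1 list, and elo-4 and elo-8 had none in any. Across all protein-coding genes, 4.84% had a peak in all 8 lists, 10.8% in 6 or more and 62.6% in none. Counted by list, PQM-1 in DLS422 had peaks at 6 of 9 elongase genes (16.9% of all protein-coding genes) and PQM-1 in OP201 at 7 (21.2%). CEH-60 in DLS435 had peaks at 3 of 9 (7.63%) and CEH-60 replicate 2 at 5 (13.3%). UNC-62 in DLS396 stood at 5 of 9 (8.58%), against 6 for CEH-60 in DLS396 (33.3%). The mIgG1 list reached 6 of 9 (18.4%), and CEH-60 replicate 1 also reached 6 (33.2%). In every list the elongase genes had a peak more often than protein-coding genes at large. The elongase genes were of ordinary size, with a median length of 1985 bp against 2006 bp for all protein-coding genes. The 9 genes are few and were chosen with earlier results known, so these counts are a description.

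**Figure D1:**
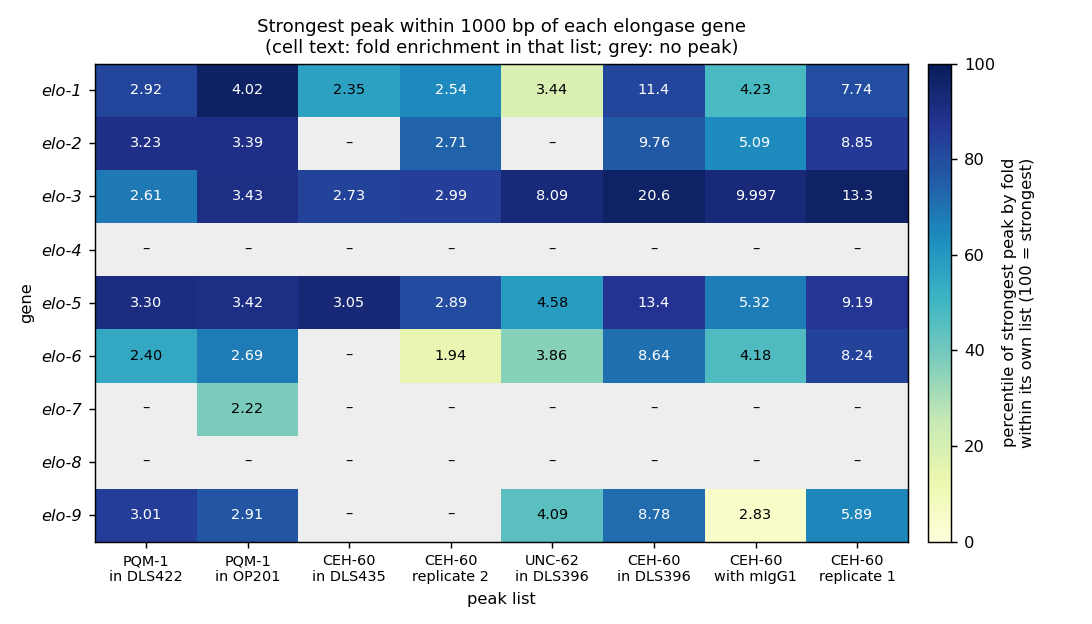
Strongest peak within 1000 bp of each elongase gene (rows) in each of the 8 peak lists (columns); colour is the percentile of that peak's fold within its own list (100 is the strongest), the cell text is its fold enrichment, and grey cells had no peak. The rows of elo-1, elo-3 and elo-5 are filled throughout, elo-4 and elo-8 are empty, and elo-3 stands at percentile 96.9 in CEH-60 in DLS396 and in CEH-60 replicate 1.

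The 71 peaks fell into 16 sites once overlapping peaks were merged across lists. The sites found most often were 3, at elo-1, elo-3 and elo-5, present in all 8 lists, 1 site at elo-6 in 7 and 1 at elo-2 in 6, and 4 sites were in a single list. In 52 of 71 cases (73.2%) the summit lay outside the gene, against 61.3% over all pairs of a peak and a protein-coding gene. These cases count each of the 16 sites again for every list with a peak there, so they are not independent. Gene strand is not in the gene table, so positions are given from the gene end with the lower or the higher coordinate. Peak coordinates, counted from 1, follow the deposited files, and the build behind them is not stated in any source used. The widest gap between a member peak and its gene was 886 bp (elo-9, PQM-1 in DLS422). The nearest peaks that were not members lay 1593 bp from elo-3, in PQM-1 in OP201 and in CEH-60 replicate 1.

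**Figure D2:**
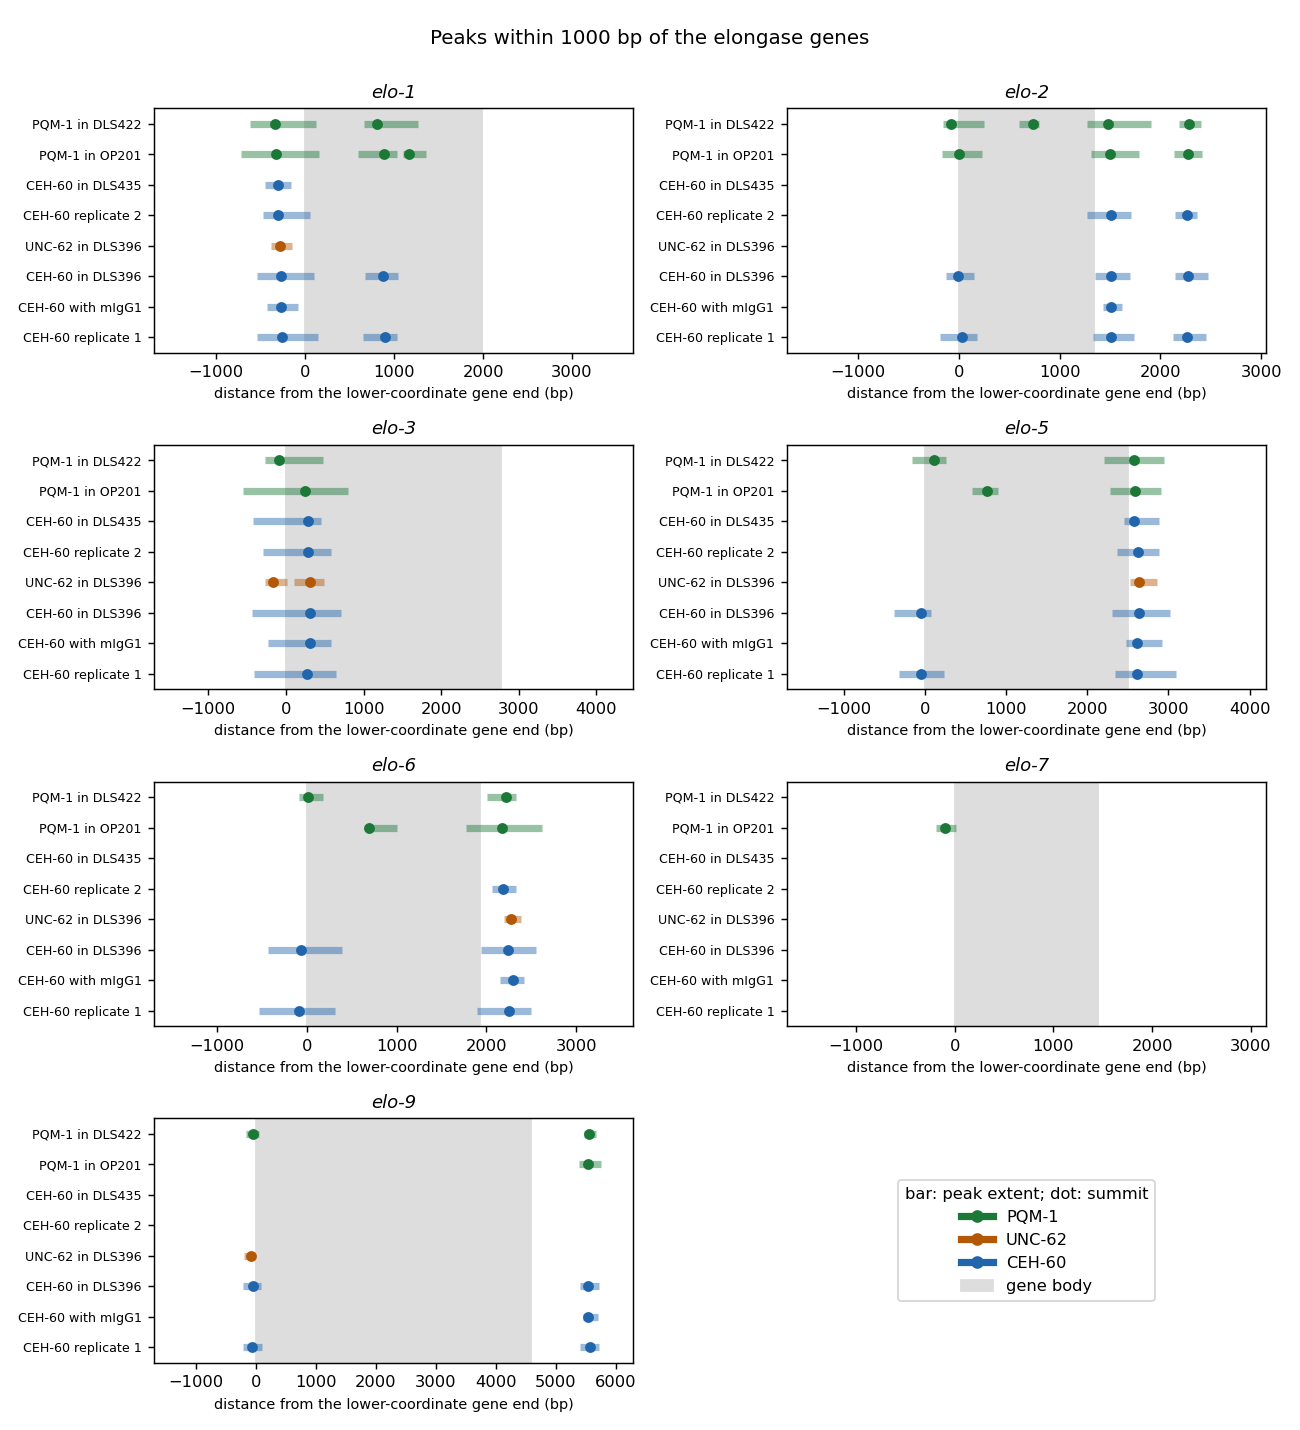
Peaks within 1000 bp of the 7 elongase genes that had any, with distance in bp from the lower-coordinate gene end on the x axis and the 8 peak lists on the y axis; bars are peak extents, dots are summits and grey is the gene body. The summits at the higher-coordinate end of elo-2 line up within 26 bp over 6 lists, and those of elo-5 within 57 bp over 8 lists, while the sites at the lower-coordinate ends of elo-5 and elo-6 appear in 3 lists each.

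The 2 genes of straight-chain and polyunsaturated fatty acid elongation had peaks of all 3 factors at elo-1, and of PQM-1 and CEH-60 alone at elo-2. The main elo-1 site lay at the lower-coordinate end (IV 9525639 to 9526524), with summits 264 to 336 bp outside the gene in the 8 lists. Its PQM-1 peak had a fold of 2.92 in DLS422 (rank 915 of 5020) and of 4.02 in OP201 (rank 164 of 6001), where it was the strongest elongase peak of the list. Its CEH-60 peak had a fold of 2.35 in DLS435 (rank 881 of 2048) and of 2.54 in replicate 2 (rank 1222 of 3430). In the long-crosslink lists the site had a fold of 3.44 for UNC-62 in DLS396 (rank 1661 of 2051), 11.4 for CEH-60 in DLS396 (rank 1585 of 8991), 4.23 with mIgG1 (rank 2299 of 4429) and 7.74 in CEH-60 replicate 1 (rank 1800 of 9008). The site was therefore in the strongest quartile by fold of both PQM-1 lists, of CEH-60 in DLS396 and of CEH-60 replicate 1, and in the weakest quartile of the UNC-62 list. The noncoding RNA genes F56H11.8 and F56H11.11 also lay within 1000 bp of this peak in all 8 lists, and the mitochondrial complex I gene ndua-5 in 5.

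A second elo-1 site lay inside the gene (IV 9526960 to 9527728) in 4 lists. PQM-1 had a fold of 2.51 there in DLS422 (rank 1895 of 5020), as 1 peak of 607 bp, against 2.12 (rank 4248 of 6001) and 1.81 (rank 5714 of 6001) in OP201, as 2 separate peaks. CEH-60 had a fold of 7.62 in DLS396 (rank 3198 of 8991), against 4.54 in replicate 1 (rank 4476 of 9008). CEH-60 in DLS435, replicate 2, mIgG1 and UNC-62 had no peak at this inner site.

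At elo-2 the strongest site lay past the higher-coordinate end (IV 17467333 to 17467973), with summits 140 to 166 bp outside the gene. PQM-1 had a fold of 3.23 in DLS422 (rank 512 of 5020) and of 3.39 in OP201 (rank 625 of 6001). CEH-60 had a fold of 2.71 in replicate 2 (rank 910 of 3430), 9.76 in DLS396 (rank 2139 of 8991), 5.09 with mIgG1 (rank 1598 of 4429) and 8.85 in replicate 1 (rank 1301 of 9008). A further site lay 916 to 943 bp outside that end (IV 17468189 to 17468536), where PQM-1 had a fold of 2.81 in DLS422 (rank 1136 of 5020) and of 3.23 in OP201 (rank 813 of 6001). CEH-60 had peaks at this outer site in replicate 2 (2.26), DLS396 (5.25) and replicate 1 (5.36), but not with mIgG1. A site over the lower-coordinate end (IV 17465885 to 17466319) was weaker, with PQM-1 folds of 2.01 in DLS422 (rank 4095 of 5020) and 2.41 in OP201 (rank 2862 of 6001) and CEH-60 folds of 4.44 in DLS396 (rank 5970 of 8991) and 4.44 in replicate 1 (rank 4631 of 9008). The outer site also lies within 1000 bp of F11E6.4, and the lower-end site within 1000 bp of F11E6.6, so these sites belong to elo-2 by distance alone. No UNC-62 peak lay nearer to elo-2 than 78182 bp, and no CEH-60 peak of DLS435 nearer than 17353 bp.

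The 2 genes of branched-chain elongation, elo-5 and elo-6, lie 9511 bp apart on chromosome IV, and each had its main site just past its higher-coordinate end. The elo-5 site (IV 5376819 to 5377709) was in all 8 lists, with summits 81 to 138 bp outside the gene. PQM-1 had a fold of 3.30 there in DLS422 (rank 448 of 5020) and of 3.42 in OP201 (rank 584 of 6001). CEH-60 had a fold of 3.05 in DLS435 (rank 133 of 2048) and of 2.89 in replicate 2 (rank 674 of 3430). The elo-5 site thus lay in the strongest quartile of all 4 short-crosslink lists. UNC-62 had a fold of 4.58 in DLS396 (rank 855 of 2051), against 13.4 for CEH-60 in DLS396 (rank 1101 of 8991). CEH-60 with mIgG1 had a fold of 5.32 (rank 1448 of 4429), against 9.19 in replicate 1 (rank 1173 of 9008).

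The elo-6 site (IV 5388403 to 5389249) was weaker and was in 7 lists, with summits 242 to 364 bp outside the gene. PQM-1 had a fold of 2.40 in DLS422 (rank 2282 of 5020) and of 2.69 in OP201 (rank 1939 of 6001). CEH-60 in DLS435 had no peak, its nearest being the elo-5 peak 9126 bp away, and replicate 2 had a fold of 1.94 (rank 2958 of 3430), in the weakest quartile of that list. The long-crosslink lists had folds of 3.86 for UNC-62 in DLS396 (rank 1311 of 2051), 8.64 for CEH-60 in DLS396 (rank 2659 of 8991), 4.18 with mIgG1 (rank 2338 of 4429) and 8.24 in replicate 1 (rank 1557 of 9008). In each list with a peak at both genes, elo-6 ranked below elo-5. The noncoding RNA gene F41H10.36 lies within 1000 bp of the elo-6 site in all 7 lists, and the protein-coding gene htp-1 in 1.

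Weaker sites lay over the lower-coordinate ends of both genes. At elo-5 (IV 5374241 to 5374875) PQM-1 had a peak in DLS422 (2.18, rank 3230 of 5020) and CEH-60 had one in DLS396 (4.33, rank 6182 of 8991) and in replicate 1 (3.31, rank 6533 of 9008). At elo-6 (IV 5386103 to 5387018) the same 3 lists had folds of 1.97 (rank 4235 of 5020), 3.66 (rank 7208 of 8991) and 4.37 (rank 4722 of 9008). PQM-1 in OP201 had no peak at these lower ends, and instead had 1 peak inside each gene, at elo-5 (1.83, rank 5643 of 6001) and at elo-6 (1.76, rank 5827 of 6001), both among its weakest. F41H10.3, which overlaps the lower-coordinate end of elo-5, and F41H10.12 beside elo-6 lie within 1000 bp of the lower-end peaks as well.

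Among the members whose substrates are not described here, elo-3 had the strongest UNC-62 peak of the family, and the strongest CEH-60 peak of the family in every CEH-60 list but that of DLS435, where elo-5 was higher. Its single site (IV 7237164 to 7238520) covered the lower-coordinate gene end. The noncoding RNA genes D2024.15 and D2024.17 each lay within 1000 bp of 8 of the 9 peaks of this site. UNC-62 in DLS396 had a fold of 8.09 (rank 149 of 2051), against 20.6 for CEH-60 in DLS396 (rank 277 of 8991). CEH-60 with mIgG1 had a fold of 9.997 (rank 301 of 4429), against 13.3 in replicate 1 (rank 280 of 9008). CEH-60 in DLS435 had a fold of 2.73 (rank 352 of 2048), against 2.99 in replicate 2 (rank 549 of 3430). PQM-1 had a fold of 2.61 in DLS422 (rank 1603 of 5020) and of 3.43 in OP201 (rank 568 of 6001). The elo-3 peak was thus in the strongest quartile of every list but that of DLS422.

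The shape of the elo-3 site differed between lists. UNC-62 had 2 peaks there, with summits 162 bp outside and 312 bp inside the gene, the inner one being the stronger (8.09 against 4.17). CEH-60 had 1 peak in each list, with summits 266 to 312 bp inside the gene. The PQM-1 summit lay 90 bp outside the gene in DLS422 and 241 bp inside it in OP201, under peaks of 748 and 1357 bp.

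At elo-9, on chromosome II, 1 site lay at the lower-coordinate end (II 14959301 to 14959622) and 1 lay 947 to 987 bp past the other end (II 14964915 to 14965270). The lower-end site had a PQM-1 peak in DLS422 with a fold of 3.01 (rank 775 of 5020), and OP201 had none there, its nearest peak being 5336 bp away. At the same site UNC-62 had a fold of 4.09 (rank 1133 of 2051), against 8.78 for CEH-60 in DLS396 (rank 2572 of 8991), and CEH-60 replicate 1 had 5.89 (rank 3142 of 9008). The far site had a PQM-1 fold of 1.98 in DLS422 (rank 4228 of 5020) and of 2.91 in OP201 (rank 1378 of 6001). It had CEH-60 folds of 5.73 in DLS396, 2.83 with mIgG1 (rank 4190 of 4429) and 5.06 in replicate 1. Within DLS422 the lower-end peak was the higher of the pair, and in OP201 the far peak was the only one. CEH-60 in DLS435 and in replicate 2 had no peak near elo-9, the nearest lying 145644 and 70008 bp away.

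The 3 remaining genes were nearly or wholly without peaks. The elo-7 gene, 1596 bp from elo-1, had a single peak in PQM-1 in OP201 (IV 9529758 to 9529964, 2.22, rank 3697 of 6001), with its summit 102 bp outside the lower-coordinate end, beside the pseudogene F56H11.6. The nearest peaks to elo-4 lay 5253 to 5382 bp away in the 8 lists. Those nearest to elo-8 lay 8634 to 32833 bp away. A peak list gives no value below its threshold, so weaker binding at these genes was not measured.

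PQM-1 in DLS422 set against PQM-1 in OP201 addresses PQM-1 binding with ceh-60(ok1485). The 6 elongase genes with a PQM-1 peak in DLS422 all had one in OP201, and elo-7 had one in OP201 only. By gene, 92.8% of protein-coding genes with a peak in DLS422 had one in OP201, and 74.1% in the other direction. By peak, 9 of the 13 DLS422 elongase peaks were overlapped by an OP201 peak (83.4% of all DLS422 peaks), and 10 of the 13 OP201 elongase peaks by a DLS422 peak (67.9% of all OP201 peaks). The main sites of elo-1, elo-2, elo-3, elo-5 and elo-6 were in both lists. The 4 DLS422 peaks without an OP201 counterpart lay inside elo-2 (1.86, rank 4674 of 5020) and at the lower-coordinate ends of elo-5, elo-6 and elo-9.

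The elo-9 peak was the one that stood high among these. In the strongest quartile of the DLS422 list, 99.5% of peaks (1249 of 1255) were overlapped by an OP201 peak, and the elo-9 peak was among the 6 that were not. Of the 4 DLS422 elongase peaks without an OP201 counterpart, 3 (elo-5, elo-6 and elo-9) were overlapped by a CEH-60 replicate 1 peak, against 36.8% of all such DLS422 peaks. The DLS422 elongase peaks with an OP201 counterpart were all overlapped by a replicate 1 peak too. Overlap with replicate 1 therefore does not set the unshared DLS422 elongase peaks apart from the shared ones. Of the 3 OP201 elongase peaks without a DLS422 counterpart (inside elo-5, inside elo-6 and at elo-7), 0 were overlapped by CEH-60 replicate 1, against 68.4% of all such OP201 peaks. Replicate 1 is a long-crosslink list, while both PQM-1 lists were made with short crosslinking. CEH-60 replicate 2, also made with short crosslinking, overlapped none of these 7 peaks. The share of all unshared PQM-1 peaks that replicate 2 overlaps was not computed. The 7 peaks come from single libraries, and all but the elo-9 peak rank below the median of their list by fold. OP201 also carries unc-119(tm4063), which the label of DLS422 does not name, so a difference between the strains cannot be told apart from that allele or from the spread between libraries.

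CEH-60 in DLS435 set against CEH-60 replicate 2 addresses CEH-60 binding with pqm-1(ok485). DLS435 had peaks at elo-1, elo-3 and elo-5, which are 3 of the 5 elongase genes with a peak in replicate 2 (55.5% of all protein-coding genes with one), and the 3 genes all had a replicate 2 peak (97.0%). All 3 of the DLS435 elongase peaks were overlapped by a replicate 2 peak (92.3% of all DLS435 peaks). In return, 3 of the 6 replicate 2 elongase peaks were overlapped by a DLS435 peak, close to the 52.2% of all replicate 2 peaks. The peaks without a counterpart were both elo-2 peaks and the elo-6 peak, and OP201 had a PQM-1 peak at all 3 (73.9% of all such replicate 2 peaks). OP201 also had a PQM-1 peak at the 3 elongase peaks with a DLS435 counterpart, so this overlap does not set the missing ones apart. Over all replicate 2 peaks, with or without a DLS435 counterpart, the share overlapped by an OP201 peak was 83.9%. The 2 replicate 2 peaks in the strongest quartile, at elo-3 and elo-5, had DLS435 counterparts (89.1% of all in that quartile). The stronger elo-2 peak was in the second quartile, where 59.2% of peaks had a DLS435 counterpart, and the elo-6 peak in the weakest, where 24.3% had one. The DLS435 list is the shorter, at 2048 peaks against 3430, so a missing peak may lie below its threshold, which was not tested.

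PQM-1 in OP201 set against CEH-60 replicate 2, both with short crosslinking, compares the 2 factors. All 6 replicate 2 elongase peaks were overlapped by an OP201 PQM-1 peak (83.9% of all replicate 2 peaks), and 6 of the 13 OP201 elongase peaks were overlapped by a replicate 2 peak (44.9% of all OP201 peaks). By gene, the 5 elongase genes with a replicate 2 peak all had an OP201 peak (87.8% of all genes with a replicate 2 peak), and 5 of the 7 with an OP201 peak had a replicate 2 peak (55.1% of all genes with an OP201 peak). The elongase genes with PQM-1 alone in this pair were elo-7 and elo-9.

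UNC-62 and CEH-60 were recovered from the same strain, DLS396. All 6 UNC-62 elongase peaks, at elo-1, elo-3 (2 peaks), elo-5, elo-6 and elo-9, were overlapped by a CEH-60 peak, as were 98.7% of all UNC-62 peaks. By gene, the 5 elongase genes with UNC-62 all had CEH-60 (99.6% of all genes with UNC-62), and 5 of the 6 with CEH-60 had UNC-62 (25.7% of all genes with CEH-60). Of the 12 CEH-60 elongase peaks in DLS396, 5 were overlapped by an UNC-62 peak, against 21.0% of all CEH-60 peaks. Of the 4 in the strongest quartile of the CEH-60 list, 3 had UNC-62 (70.1% of all peaks in that quartile), and the exception was elo-2. In the second quartile 2 of 3 had UNC-62 (11.9% of all), at elo-6 and elo-9, and in the third and weakest quartiles 0 of 5 had it (0.999% and 0.775% of all).

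CEH-60 in DLS396 set against CEH-60 replicate 1 gives CEH-60 binding with gaIs285 present. The 12 elongase peaks of DLS396 and the 12 of replicate 1 overlapped one another without exception, against 90.3% of all DLS396 peaks and 89.9% of all replicate 1 peaks. The same 6 genes, elo-1, elo-2, elo-3, elo-5, elo-6 and elo-9, had peaks in both, against 92.8% of all genes with a peak in DLS396 and 92.9% of all genes with one in replicate 1.

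The mIgG1 antibody set against 3F10 on DLS395 (replicate 1) gave peaks at these 6 genes too. Over all protein-coding genes, 99.3% of those with an mIgG1 peak had one in replicate 1, and 54.9% of those with a replicate 1 peak had one with mIgG1. All 6 mIgG1 elongase peaks were overlapped by a replicate 1 peak (99.1% of all mIgG1 peaks), and 6 of the 12 replicate 1 peaks were overlapped in return (45.3% of all). The 5 in the strongest quartile of replicate 1 were all found with mIgG1 (97.2% of all peaks in that quartile), and those missed were the inner elo-1 site, the lower-end sites of elo-2, elo-5, elo-6 and elo-9, and the outer elo-2 site.

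CEH-60 replicates 2 and 1 shared peaks at 5 elongase genes, elo-1, elo-2, elo-3, elo-5 and elo-6. These are all 5 elongase genes with a replicate 2 peak (99.2% of all genes with one) and 5 of the 6 with a replicate 1 peak (39.8% of all genes with one). All 6 replicate 2 peaks were overlapped by a replicate 1 peak (97.3% of all replicate 2 peaks), and 6 of the 12 replicate 1 peaks by a replicate 2 peak (33.4% of all). The elo-9 gene had 2 peaks in replicate 1 and 0 in replicate 2. The replicates differ in crosslinking, shearing and kit, so the spread between libraries made alike was not measured.

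A list of 22 related lipid genes shows what lies around the elongases in the pathway. Of its 22 genes, 7 had a peak in all 8 lists: the acyl-CoA synthetase genes acs-1, acs-4, acs-5 and acs-22, the branched-chain genes dbt-1 and bcat-1, and sbp-1. Of the 3 genes listed as branched-chain supply, dbt-1, a subunit of the branched-chain ketoacid dehydrogenase, and bcat-1, a branched-chain aminotransferase, were thus in all 8, and the acyl-CoA dehydrogenase gene acdh-1 was in 7, without a peak in DLS435. The gene acs-1 encodes an acyl-CoA synthetase for branched-chain fatty acids. At acs-1 the strongest PQM-1 peak had a fold of 4.26 in DLS422 (rank 61 of 5020) and of 3.12 in OP201 (rank 969 of 6001). The CEH-60 peaks of acs-1 had a fold of 3.19 in DLS435 (rank 86 of 2048), against 3.24 in replicate 2 (rank 326 of 3430). In the long-crosslink lists acs-1 stood at 5.24 for UNC-62 in DLS396 (rank 584 of 2051), 17.8 for CEH-60 in DLS396 (rank 483 of 8991) and 14.6 in CEH-60 replicate 1 (rank 186 of 9008). At dbt-1 PQM-1 had a fold of 3.49 in DLS422 (rank 317 of 5020) and of 4.18 in OP201 (rank 116 of 6001).

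The ketoacyl-CoA reductase gene let-767, the dehydratase homologue hpo-8 and the enoyl-CoA reductase homologue art-1 complete the elongation round. All 3 had peaks in both PQM-1 lists, in CEH-60 in DLS396 and in CEH-60 replicate 1, and none for UNC-62 or in DLS435. Of all protein-coding genes, 8.58% had a peak for UNC-62 and 7.63% in DLS435. For let-767 there were also peaks in CEH-60 replicate 2 (2.20, rank 2118 of 3430) and with mIgG1 (2.86, rank 4155 of 4429), where hpo-8 and art-1 had none. In PQM-1 the folds of let-767 were 2.29 in DLS422 (rank 2675 of 5020) and 2.89 in OP201 (rank 1437 of 6001). The acetyl-CoA carboxylase gene pod-2, which makes malonyl-CoA, had the lists of hpo-8 and art-1, while the fatty acid synthase gene fasn-1 and the malonyl-CoA decarboxylase gene mlcd-1 had no peak in any list.

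Of the 5 acyl-CoA synthetase genes, acs-3 alone had no peak in any list, and acs-4 had a PQM-1 fold of 3.53 in DLS422 (rank 299 of 5020) and of 4.49 in OP201 (rank 47 of 6001). The SREBP homologue sbp-1 encodes a transcription factor of fat synthesis. The Mediator subunit gene mdt-15, its coactivator, had peaks in 4 lists, with a PQM-1 fold of 1.83 in DLS422 (rank 4750 of 5020) and 1.98 in OP201 (rank 5056 of 6001). The nuclear receptor genes nhr-49, nhr-80, nhr-13 and nhr-66 had peaks in 6, 5, 3 and 5 lists, and none had a peak in DLS435 or replicate 2. Few genes had one there at large, with 7.63% of all protein-coding genes in DLS435 and 13.3% in replicate 2. The flippase gene tat-2 had peaks in 7 lists, and nprl-3 in none.

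Counted over the list of 22, PQM-1 had peaks at 17 genes in DLS422 (16.9% of all protein-coding genes) and at 17 in OP201 (21.2%). CEH-60 had peaks at 7 in DLS435 (7.63%), against 10 in replicate 2 (13.3%). UNC-62 in DLS396 had 10 (8.58%), against 18 for CEH-60 in DLS396 (33.3%). The mIgG1 list had 14 (18.4%) and CEH-60 replicate 1 had 18 (33.2%). In all, 7 of 22 had a peak in all 8 lists (4.84% of all protein-coding genes) and 4 of 22 in none (62.6%). The desaturases fat-1 to fat-7, which act on the products and substrates of the elongases, stood at 6 of 7 in each PQM-1 list, at 4 of 7 for CEH-60 in DLS435 and for UNC-62, and at 6 of 7 in the other 4 lists. The strongest peaks of fat-3 and fat-4 had the same fold and rank in both PQM-1 lists, CEH-60 in DLS396 and replicate 1. There, 1 peak may thus be counted for both genes.

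**Figure D3:**
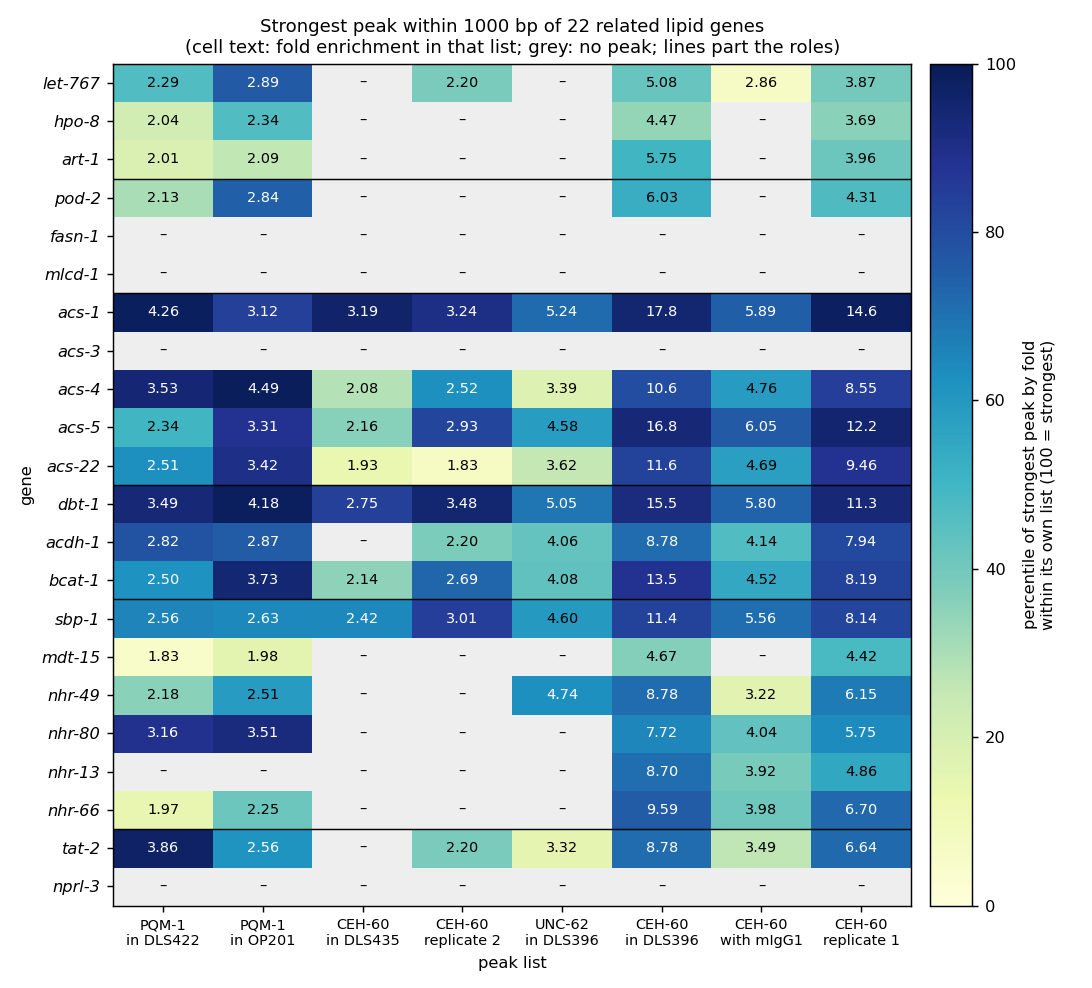
Strongest peak within 1000 bp of each of 22 related lipid genes (rows, grouped by role from the elongation round at the top to the suppressors of branched-chain loss at the bottom) in the 8 peak lists (columns); colour is the percentile of that peak's fold within its own list, the cell text is its fold and grey cells had no peak. The rows of acs-1, acs-4, acs-5, acs-22, dbt-1, bcat-1 and sbp-1 are filled throughout, and fasn-1, mlcd-1, acs-3 and nprl-3 are empty.

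**Figure D4:**
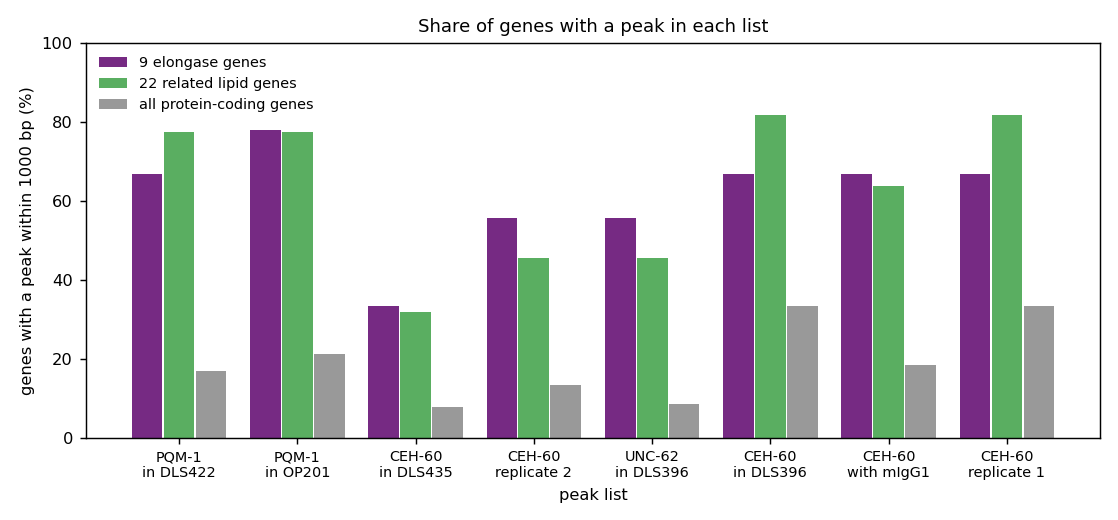
Share of genes (%) with a peak within 1000 bp in each of the 8 lists, for the 9 elongase genes, the 22 related lipid genes and all protein-coding genes; bars are shares of genes in 1 library each and have no error. For PQM-1 in OP201 the shares are 77.8%, 77.3% and 21.2%, and for CEH-60 in DLS435 33.3%, 31.8% and 7.63%.

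To find genes with a similar pattern, the percentile of each gene's strongest peak within its list was taken over the 8 lists, with 0 where it had none, and genes that share a peak with the member were left out. The patterns nearest to elo-3 were those of C42D4.13, with a mean absolute difference of 2.97 percentile points, and of mig-39 and F42H10.6, which share peaks with each other, both at 2.98. Nearest to elo-5 were hrg-11.2 and irg-7, again sharing peaks (4.24), and oac-54 (4.70). Nearest to elo-1 were pmt-1 (4.87), cpt-6 (5.67) and Y53G8AL.3 (5.83), and nearest to elo-6 were cup-14 (4.50), mans-2 (5.88) and F11D5.7 (5.90). The pattern of elo-2, without UNC-62 and without DLS435, was nearest to that of B0244.10 (4.52) and of bcmo-2 and F53C3.1, which share peaks (4.58). For elo-9 they were Y38H6C.21 and Y38H6C.23, which share peaks (5.28), and tdo-2 (7.83).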

How the data were processed

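ChIP-seq peak lists of whole day 1 adults were used as deposited, 1 for each of 8 immunoprecipitated samples; the 2 input samples were not analysed here. The tools named in the submitters' processing notes are Bowtie2, SAMtools, MACS2 and deepTools, with no versions; the genome build, the control libraries and duplicate handling are not stated there or in the files. Each deposited list gives a fold (a linear ratio at the summit), a −log10 p-value and −log10 q-value, and a score (10 times the −log10 q, truncated), which was left unused. No list held a −log10 q below 2, and read depth is unknown, so precision is limited by the number of peaks.

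Peaks of the mitochondrial chromosome were left out. A gene had a peak where any part of one overlapped it or lay within 1000 bp, and peaks were shared at an overlap of 1 bp or more. Gene ends came from a WBcel235 table with no strand. Shifting that table in steps of 20 bp, up to 300 bp either way, put the largest number of summits within 100 bp of gene ends at shifts of −80 to 80 bp, with 13.4% to 15.1% of summits there, against 12.9% to 14.9% unshifted; no coordinate of the table is printed. Pairs within 1 crosslinking protocol were compared, apart from the CEH-60 replicates and the overlap of unshared PQM-1 peaks with CEH-60 replicate 1. Named genes are all members, the 22 related genes, neighbours within 1000 bp of a member peak, and the 3 genes of nearest pattern for each member with peaks in 4 or more lists. The members and lists were chosen with earlier results of these data known. A planned motif description was not run, since no sequence was used here. Scripts used Python 3.11.15, numpy 2.4.6 and pandas 2.3.3 and were tested on simulated data.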

Additional observations from a re-analysis of the deposited data

How the results depend on the processing

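Of 93 counts recomputed with both replicates in, which varied the distance (0, 500 and 2000 bp), used summits near gene ends, required a −log10 q of 5 or 10, or changed the overlap rule, 88 stayed within 1.5 times the reported count. The 2 values without a replicate also did, as did 6 of 8 values of an alternative chosen after seeing the data, the 2000 peaks of highest −log10 q per list. That alternative removed few peaks from CEH-60 in DLS435 (2048 peaks) and UNC-62 in DLS396 (2051), so it could hardly change their counts. Smaller changes, within 1.5 times, include these. With peaks required to overlap the gene itself, CEH-60 in DLS435 went from 3 elongase genes to 2 (4.27% of all protein-coding genes). Replicate 2 went from 5 to 4 (7.73%) under that rule. With a −log10 q of 10 or more they also had 2 (3.65%) and 4 (7.64%). With summits near gene ends they again had 2 and 4, and the shares over all genes were not computed. With peaks required to overlap the gene itself, UNC-62 in DLS396 had 1 elongase gene (4.38% of all protein-coding genes under that rule) and mIgG1 had 2 (10.2%). Under that rule elo-3 alone had a peak in all 8 lists, and elo-1 and elo-5 did not. With a −log10 q of 10 or more, UNC-62 in DLS396 had 2 elongase genes, elo-3 and elo-5 (5.26% of all protein-coding genes). These 2 genes then had a peak in all 8 lists, and elo-1 did not. The share of all protein-coding genes with a peak in all 8 lists was not computed under either rule. With an overlap of 50% of both peaks, 1 of 6 UNC-62 elongase peaks was shared with CEH-60 in DLS396 (21.1% of all UNC-62 peaks), and 3 of 6 mIgG1 elongase peaks with replicate 1 (57.1% of all mIgG1 peaks). With the 2000 peaks of highest −log10 q, CEH-60 in DLS396 had 3 elongase genes (9.89% of all) and mIgG1 had 3 (9.22%); PQM-1 had 6 in DLS422 (9.45%) and 6 in OP201 (10.1%). Elongase genes with a peak in both CEH-60 replicates numbered 5. Counted by itself, replicate 2 had 5 and replicate 1 had 6. A count from 1 replicate cannot be below the count shared by both, so these 2 values do not test how stable it is. No paired analysis was possible because the lists have 1 library per group or share fewer than 2 replicate numbers.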

Other observations

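Some peaks near the elongase genes lay beyond 1000 bp and were noticed after the values were seen. A peak 1593 to 1816 bp outside the lower-coordinate end of elo-3 (IV 7235095 to 7236125 in PQM-1 in OP201) was present in all 8 lists. PQM-1 had a fold of 3.20 there in DLS422 (rank 541 of 5020) and of 3.88 in OP201 (rank 232 of 6001), above the peak over the gene end in each list. CEH-60 had a fold of 6.97 there in replicate 1 (rank 2291 of 9008), below its peak at the gene end, as it was in the other 5 lists.

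Between elo-5 and elo-6, a peak about 3 kb past elo-5 (IV 5380120 to 5380577 in CEH-60 replicate 1, 10.3, rank 856 of 9008) was in 7 lists and absent from CEH-60 in DLS435. Its fold was above that of the elo-5 peak of the same list in 3 CEH-60 lists, at 13.7 against 13.4 in DLS396, 6.70 against 5.32 with mIgG1 and 10.3 against 9.19 in replicate 1. It was below the elo-5 peak in the other 4 lists, at 2.40 against 3.30 for PQM-1 in DLS422, 2.13 against 3.42 for PQM-1 in OP201, 2.50 against 2.89 in CEH-60 replicate 2 and 4.35 against 4.58 for UNC-62 in DLS396.

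A peak that all 8 lists shared lay 5253 to 5382 bp from elo-4, with a fold of 12.5 in CEH-60 replicate 1 (rank 386 of 9008). The other 5 strong DLS422 PQM-1 peaks that lacked an OP201 counterpart, as the elo-9 peak did, lay at anc-1 (3.12), clec-75 with Y46C8AM.1 (3.03), cal-1 (2.95), daf-12 (2.93) and dep-1 (2.77). CEH-60 replicate 1, a long-crosslink list, had a peak at 5 of the 6, the exception being dep-1. Over all DLS422 peaks without an OP201 counterpart, of any strength, the share was 36.8%. The share over all peaks of the strongest quartile was not computed. CEH-60 replicate 2, with short crosslinking as in DLS422, had a peak at daf-12 alone.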
